A study of Mus musculus with 8 samples.

Results

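The genes described here encode stress granule proteins and other proteins that bind mRNA in the cytoplasm. The list holds 47 genes, taken by name, and 44 of them were measured among 19937 genes with a usable probe set. A gene counted as measured if a probe set of the array carried its symbol and no other, and the probe set with the highest mean was kept where there were several. Eif4g1, which encodes the main scaffold of the cap-binding complex, had no named probe set. The probe sets of Pabpc4 and Hnrnpa1 also carry symbols of other loci, so these genes were left out of all counts.

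The samples were 8 arrays of total RNA from the mouse embryonic stem cell line R1 (male, 129X1 x 129S1), kept in medium with LIF and 15% serum. In 4 samples (shGFP 1, 3, 5 and 7, named by the numbers in their titles) the cells had received a pLKO.1 plasmid with a hairpin against GFP, a jellyfish gene that these cells lack. In the other 4 (shMKRN1 2, 4, 6 and 8) the hairpin was directed against Mkrn1. All cells were transfected transiently, selected with puromycin for 4 days and lysed on day 6, so both groups had gone through plasmid delivery and drug selection. Each group is defined by a single hairpin sequence, and the labels do not say that its 4 samples were transfected separately. P-values therefore measure only the spread among these 4 and 4 samples, and that spread may be technical. The hairpin sequence that defines the knockdown, as the labels give it, is printed here because every comparison rests on it.
shMKRN1: gcgagatgttgcttatgcttt

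Stress granules are assemblies of mRNA and protein that form in the cytoplasm when translation initiation is blocked and untranslated mRNAs accumulate. G3BP proteins are the central nucleators, and mRNAs stalled with their cap-binding factors and poly(A)-binding protein are the main cargo. Many of the same proteins act in unstressed cells to set the translation, stability and localisation of mRNAs. MKRN1, a RING-type ubiquitin ligase, binds mRNA itself, and the study describes it as a ribonucleoprotein of embryonic stem cells. The comparison asks whether the transcripts of other mRNA-binding proteins differ when Mkrn1 is knocked down.

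The knockdown was visible in every sample. The log2 level of Mkrn1 (Entrez 54484) was 10.45, 10.45, 10.51 and 10.34 in shGFP 1, 3, 5 and 7, and 9.81, 9.81, 9.86 and 9.88 in shMKRN1 2, 4, 6 and 8. All shMKRN1 samples thus lay below all shGFP samples, with a change of -0.60 (SE 0.052; limma adjusted p = 0.000767), to 66.2% of the shGFP signal. Array medians lay between 7.14 and 7.24, and shGFP 7 and shMKRN1 8 stood apart from the other arrays of their group on the leading principal component. The 12 markers of embryonic stem cells fixed for a check of the cell type all lay above 6.50, the level that 95% of 1178 silent olfactory and vomeronasal receptor genes do not exceed. Their mean log2 level ranged from 11.50 to 11.58 in shGFP and from 11.51 to 11.58 in shMKRN1, and 1 of them, Nanog, rose. Of 22 measured fibroblast markers, the other cell type such cultures may hold, 4 passed the test, which is 18.2% against 4.49% of all genes. Col1a1 and Pdgfrb rose by 0.37 and 0.35 on the log2 scale, and Timp3 and Thbs1 fell by 0.67 and 0.63 (limma adjusted p of 0.0318 to 0.0486). The mean log2 level of the 22, over markers that moved both ways, ranged from 7.85 to 8.01 in shGFP and from 7.80 to 8.02 in shMKRN1. Of these markers Fap, Lum, Postn, Prrx1 and S100a4 did not exceed the level of the silent receptor genes, and whether fibroblasts had a part in any change below was not tested.

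Transcripts of the stress granule and mRNA-binding proteins stayed close to their control level in the knockdown. Of the 44 measured genes, 1 had a limma adjusted p under 0.05, Hnrnpa0, which was higher in shMKRN1. That is 2.27% of the genes, against 4.49% of all genes tested (3.66% higher and 0.838% lower). At an unadjusted p of 0.05, 4 of the 44 passed, against 19.5% of all genes. The median change of the 44 was 0.0015 on the log2 scale, beside 0.0077 for all genes, with 22 genes higher and 22 lower in their means. Genes at or above the mean level of the lowest of the 44, a floor and not a match in level, shifted upwards as a whole. Of these 7288, 6.86% passed the test, the median change was 0.04, and 4673 were higher and 2615 lower. Whether the 44 differ from these genes was not tested. The changes ran from -0.16 for Larp4b to 0.22 for Hnrnpa0, and 36 of the 44 were no larger than 0.1 in either direction. In bulk RNA a change in the number of cells that express a gene and a change in RNA per cell cannot be told apart.

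The intervals show the precision of each kept probe set over these samples. As the spread among samples may be technical, they do not bound what separate transfections would show. For 39 of the 44 genes (88.6%) the 95% confidence interval of the change lay wholly within 1.2-fold in both directions (0.26 on the log2 scale), against 55.7% of all genes. Among the 7288 genes at or above the level of the lowest of the 44 the share was 65.3%. These genes were not matched in level, and their median SE was 0.059 against 0.051 for the 44. The 5 genes whose interval reached past 1.2-fold were Larp4, Larp4b, Hnrnpa0, Cpeb2 and Cpeb4. The widest intervals were those of Cpeb2 (-0.48 to 0.17) and Cpeb4 (-0.16 to 0.43). Of the probe sets not kept, those of Celf1 and Khdrbs1, both among the 39 genes, changed most, by 0.27 (SE 0.078) and 0.21 (SE 0.061). All 44 genes lay above the range of the silent receptor genes.

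**Figure D1:**
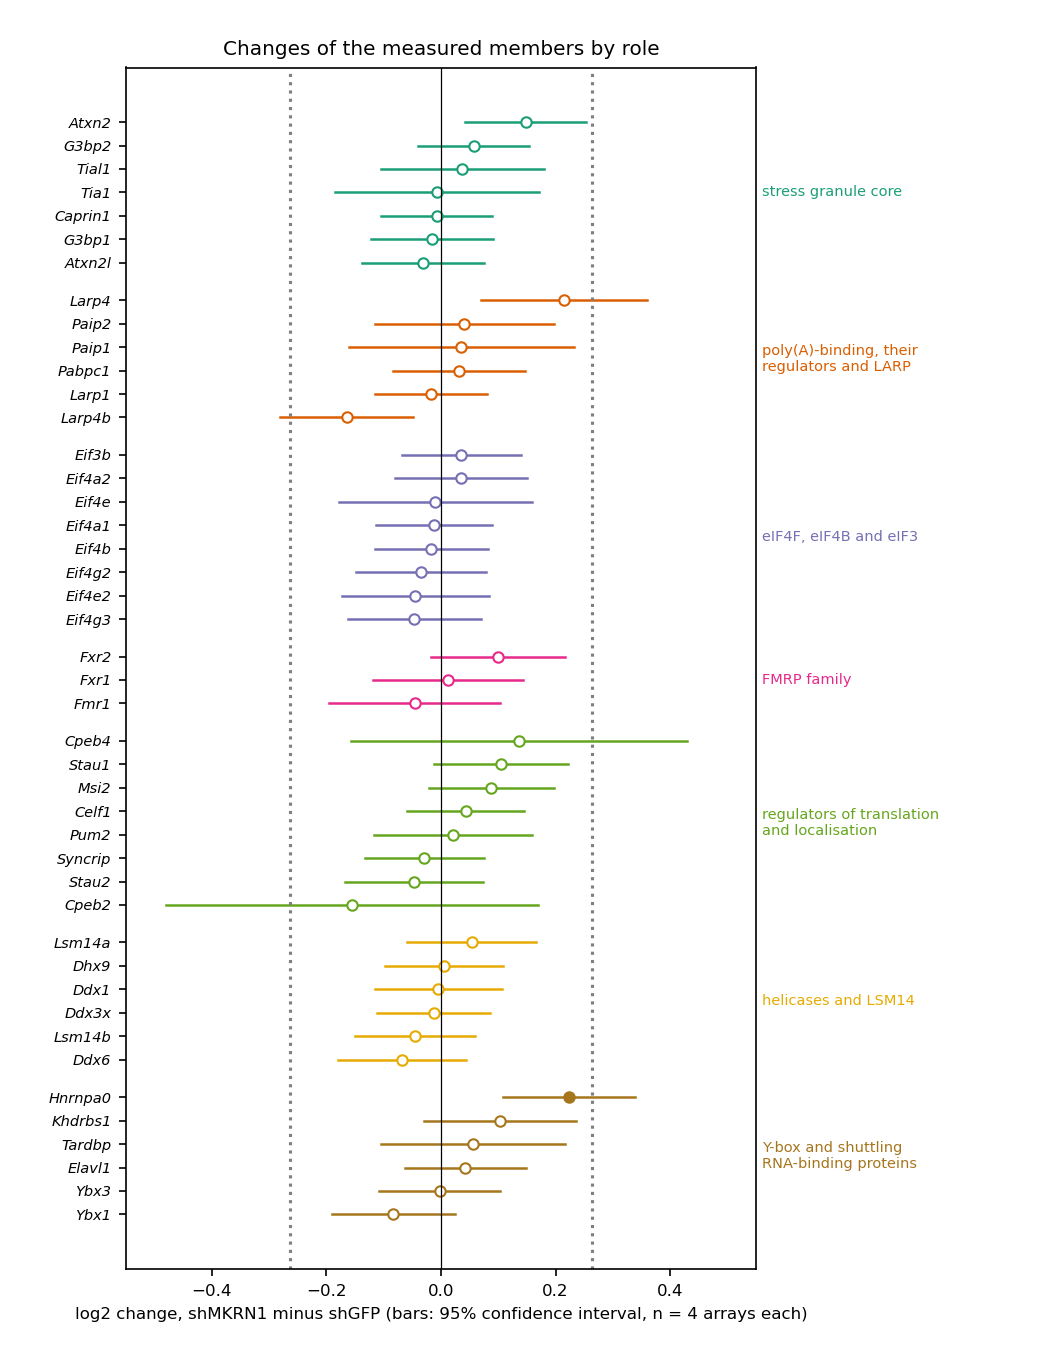
Log2 change (shMKRN1 minus shGFP, x axis) of the 44 measured genes, grouped by role, with the 95% confidence interval from limma (n = 4 arrays each) as a bar. The filled point, Hnrnpa0, is the gene past an adjusted p of 0.05, and dotted lines mark 1.2-fold, within which 39 of the 44 intervals lie.

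Among the nucleators and core proteins of stress granules none of 7 passed limma, and 1 had an unadjusted p under 0.05. G3bp1, whose protein nucleates granules, changed by -0.02 (95% confidence interval -0.12 to 0.09), and Caprin1, which encodes a partner of G3BP proteins, by -0.0077 (-0.10 to 0.09). G3bp2, the paralogue of G3bp1, had log2 levels of 11.45, 11.46, 11.42 and 11.46 in shGFP and 11.52, 11.49, 11.52 and 11.49 in shMKRN1. These groups did not overlap, but the difference of 0.06 was small (SE 0.044; limma adjusted p = 0.546). Tia1 and Tial1, which encode related RNA-binding proteins with prion-like domains, changed by -0.0073 and 0.04.

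Atxn2 encodes ataxin-2, which binds poly(A)-binding protein. Its log2 level was 10.85, 10.94, 10.85 and 10.90 in shGFP and 11.05, 10.99, 11.06 and 11.05 in shMKRN1. Every shMKRN1 sample was higher than every shGFP sample. The difference of 0.15 (SE 0.047) corresponds to 10.8% more signal and did not pass (limma adjusted p = 0.115). Its paralogue Atxn2l changed by -0.03 (-0.14 to 0.08).

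Among poly(A)-binding proteins, their regulators and the LARP proteins none of 6 passed limma, and 2 had an unadjusted p under 0.05. Pabpc1, the main cytoplasmic poly(A)-binding protein gene, changed by 0.03 (-0.08 to 0.15). Paip1 and Paip2, which encode a stimulator and an inhibitor of poly(A)-binding protein, changed by 0.04 each, with intervals of -0.16 to 0.23 and -0.11 to 0.20. Larp1, whose protein binds mRNAs with a terminal oligopyrimidine tract, changed by -0.02 (-0.12 to 0.08). A further probe set of Larp1 changed by -0.10 (limma adjusted p = 0.45 over all probe sets).

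The pair Larp4 and Larp4b differed in direction. Larp4 (Entrez 207214) encodes a poly(A)-binding factor that stabilises mRNAs, and its log2 level was 10.83, 10.87, 10.86 and 10.65 in shGFP and 11.08, 11.08, 10.99 and 10.92 in shMKRN1. Larp4b (Entrez 217980), its paralogue, had levels of 10.96, 10.90, 10.89 and 10.79 in shGFP and 10.76, 10.71, 10.72 and 10.69 in shMKRN1. For Larp4 all shMKRN1 samples were higher, and for Larp4b all were lower. Neither passed on its own, with a change of 0.21 for Larp4 (SE 0.065; limma adjusted p = 0.0986) and of -0.16 for Larp4b (SE 0.052; limma adjusted p = 0.108). Larp4 has 2 further probe sets, with changes of 0.13 and 0.15 that did not pass either (limma adjusted p = 0.564 and 0.324 over all probe sets). The table gives no positions for probe sets, so whether each of the 3 reads Larp4 itself or a copy elsewhere was not tested. The same holds for the kept and other probe sets of Celf1, Ddx3x, Eif4a1, Eif4e, Khdrbs1, Larp1 and Ybx1.

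For the translation initiation factors no member moved by more than 0.05 on its kept probe set. On these probe sets none of the 8 measured genes passed limma, none had an unadjusted p under 0.05, and all 8 intervals lay within 1.2-fold. Eif4e, the cap-binding protein gene, changed by -0.0097 (-0.18 to 0.16), and Eif4e2, which encodes a cap-binding repressor of translation, by -0.05 (-0.17 to 0.08). The helicase genes Eif4a1 and Eif4a2 changed by -0.01 and 0.03, and Eif4b, which encodes an activator of that helicase, by -0.02. Eif4g2, whose protein resembles the scaffold eIF4G but lacks the binding site for the cap-binding protein, and Eif4g3 changed by -0.04 and -0.05. Eif3b, a core subunit gene of the complex that joins mRNA to the small ribosomal subunit, changed by 0.04. Other probe sets changed by -0.11 (SE 0.13) and -0.03 for Eif4e and by -0.06 and -0.02 for Eif4a1. None of these passed (limma adjusted p of 0.703 to 0.91 over all probe sets).

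The FMRP family regulates translation and includes Fmr1, the gene silenced in fragile X syndrome. None of its 3 genes passed limma, and none had an unadjusted p under 0.05. Fxr2 had log2 levels of 10.73, 10.81, 10.80 and 10.69 in shGFP and 10.91, 10.89, 10.83 and 10.80 in shMKRN1. The groups overlapped in a single sample, shMKRN1 8, and the difference was 0.10 (SE 0.052; limma adjusted p = 0.341). Fmr1 changed by -0.05 and Fxr1 by 0.01.

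None of the 8 regulators that recognise a sequence or a structure in mRNA passed limma, and none had an unadjusted p under 0.05. Stau1, which encodes a binder of double-stranded RNA that acts in mRNA transport and decay, had log2 levels of 10.66, 10.68, 10.56 and 10.55 in shGFP and 10.77, 10.69, 10.71 and 10.68 in shMKRN1. Msi2, a Musashi gene whose protein regulates translation in stem and progenitor cells, had levels of 10.66, 10.72, 10.74 and 10.73 in shGFP and 10.74, 10.79, 10.79 and 10.87 in shMKRN1. In both genes the groups did not overlap, with gaps between the nearest samples that were small beside the spread within a group. The changes were 0.10 for Stau1 (SE 0.053; limma adjusted p = 0.316) and 0.09 for Msi2 (SE 0.049; limma adjusted p = 0.373). Stau2 changed by -0.05, Pum2, a Pumilio repressor gene, by 0.02, and Syncrip, which encodes a heterogeneous nuclear ribonucleoprotein, by -0.03. Celf1 encodes a factor of mRNA decay and splicing. It changed by 0.04 on the kept probe set and by 0.27 on its other one (limma adjusted p = 0.142 over all probe sets). Whether its probe sets differ was not tested.

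Cpeb2 and Cpeb4 encode cytoplasmic polyadenylation element-binding proteins and had the largest SDs of the 44 genes within shGFP (0.31 and 0.29). Cpeb2 lay at 9.28, 8.84, 8.76 and 8.54 in shGFP and at 8.89, 8.73, 8.72 and 8.46 in shMKRN1. Cpeb4 lay at 8.71, 8.44, 8.41 and 8.01 in shGFP and at 8.63, 8.54, 8.61 and 8.32 in shMKRN1. Both genes were lowest in shGFP 7 and in shMKRN1 8 within their groups, and the groups overlapped. The changes of -0.16 and 0.14 did not pass (limma adjusted p = 0.635 and 0.649).

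Among RNA helicases and the LSM14 proteins of cytoplasmic mRNP granules none of 6 passed limma, none had an unadjusted p under 0.05, and all intervals lay within 1.2-fold. Ddx6 encodes a helicase of translational repression and decapping. Its log2 level was 12.11, 12.15, 12.19 and 12.24 in shGFP and 12.16, 12.11, 12.09 and 12.07 in shMKRN1, a change of -0.07 with overlapping groups (SE 0.050; limma adjusted p = 0.525). Ddx3x, a helicase gene of translation initiation, changed by -0.01, Ddx1 by -0.0045 and Dhx9 by 0.0051. Lsm14a changed by 0.05 and Lsm14b by -0.05.

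Of the Y-box and shuttling RNA-binding proteins 1 of 6 measured genes passed, and it was the single call of the list. Hnrnpa0 (Entrez 77134) encodes a heterogeneous nuclear ribonucleoprotein that binds AU-rich elements in mRNA. Its log2 level was 8.75, 8.79, 8.87 and 8.91 in shGFP and 9.05, 9.05, 9.03 and 9.09 in shMKRN1. All shMKRN1 samples were higher than all shGFP samples, and they lay closer together (SD 0.024 against 0.072). The change of 0.22 (SE 0.052; limma adjusted p = 0.0401) corresponds to 16.7% more signal, with a 95% confidence interval of 0.11 to 0.34. The call rested on small margins. It was lost when any of shGFP 1, 3 or 5 or shMKRN1 2, 4, 6 or 8 was left out (limma adjusted p of 0.0575 to 0.128, with changes of 0.20 to 0.24), with quantile normalization (0.101) and with adjustment over all probe sets (0.0814).

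Khdrbs1, which encodes the signalling-linked RNA-binding protein Sam68, had log2 levels of 10.99, 11.04, 11.23 and 11.04 in shGFP and 11.19, 11.20, 11.19 and 11.13 in shMKRN1. Its groups overlapped through the high value of shGFP 5, and the change of 0.10 did not pass (SE 0.059; limma adjusted p = 0.392). A further probe set of Khdrbs1 changed by 0.21 (limma adjusted p = 0.134 over all probe sets). Ybx1, which encodes an abundant cold-shock domain protein of mRNPs, lay at 12.30, 12.26, 12.26 and 12.19 in shGFP and at 12.21, 12.20, 12.15 and 12.13 in shMKRN1. The groups overlapped, and the change was -0.08 (SE 0.048; limma adjusted p = 0.396). Its paralogue Ybx3 changed by -0.0022. Elavl1, whose protein HuR binds AU-rich elements, changed by 0.04 (-0.06 to 0.15), and Tardbp, the TDP-43 gene, by 0.06 (-0.10 to 0.22).

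**Figure D2:**
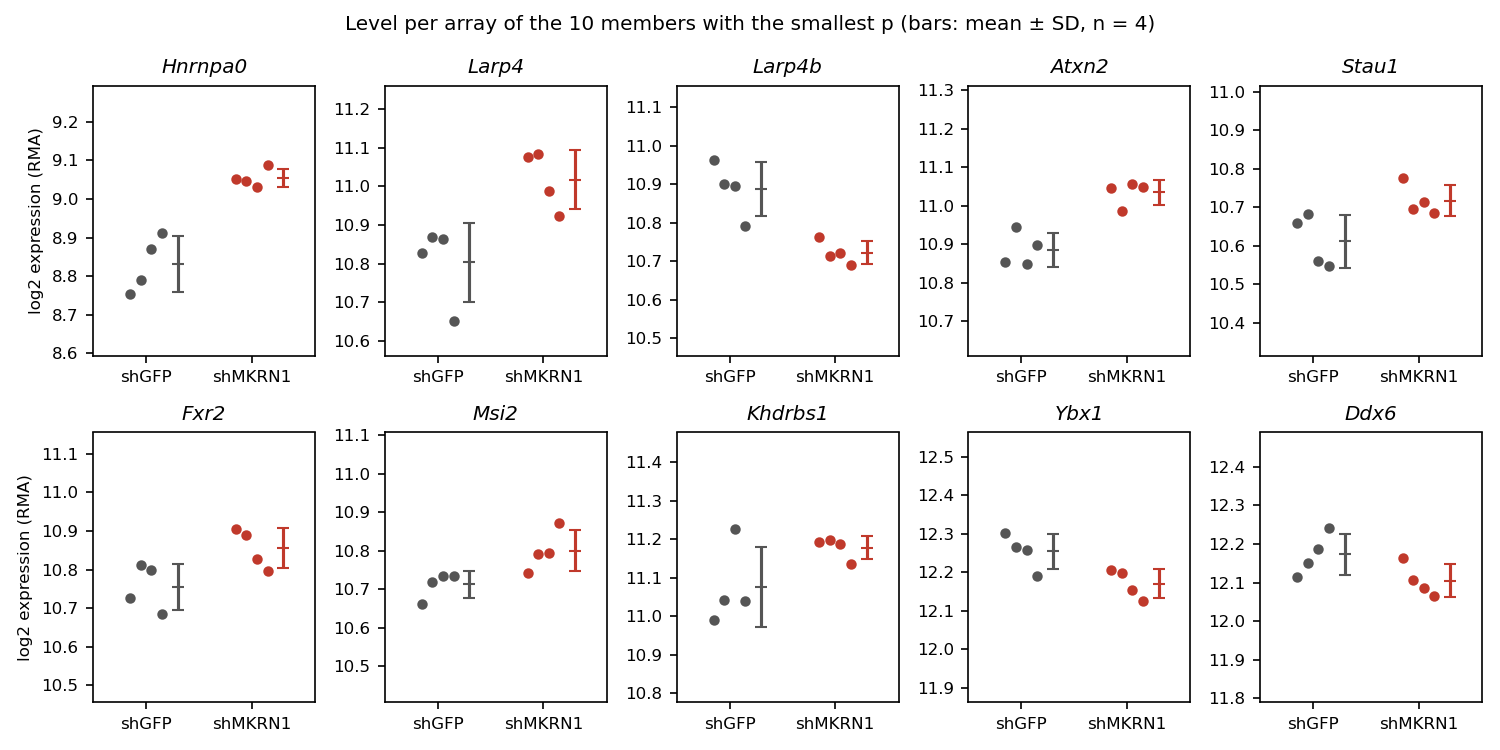
Log2 expression (RMA, y axis) in each array for the 10 genes with the smallest limma p, with mean ± SD beside the points (n = 4). Each panel spans the same height on the log2 scale, so the separation of Hnrnpa0, Larp4, Larp4b and Atxn2 can be compared with the overlap of Fxr2, Khdrbs1, Ybx1 and Ddx6.

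For 7 of the 44 genes (15.9%) the samples of the groups were fully separated, 6 of them higher in shMKRN1 and 1 lower. Among all genes the share was 14.1% (10.6% higher and 3.51% lower), so the share was near that of all genes. Among the 7288 genes at or above the level of the lowest of the 44, it was 24.1%, above that of the 44. The 7 were G3bp2, Atxn2, Larp4, Stau1, Msi2 and Hnrnpa0 on the higher side and Larp4b on the lower.

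The samples that stood apart on the principal component also stood apart in these genes. Within its group shGFP 7 was the lowest sample for 28 of the 44 genes, and shMKRN1 8 was the lowest for 28. Among genes expressed at or above the lowest of the 44, the corresponding shares were 55.6% for shGFP 7 and 59.8% for shMKRN1 8, against 63.6% for the 44 in each case. The median deviation of the 44 from their shGFP mean was -0.05 in shGFP 7 and -0.03 in shMKRN1 8, and lay between 0.0077 and 0.04 in the other 6 samples. Without both of these samples 16 of the 44 genes (36.4%) were fully separated, against 27.8% of all genes, and Hnrnpa0 was again the only call. Without shGFP 7 alone 13 genes did not overlap (29.5%, against 20% of all genes). These samples were left out because they stood apart in the same data. For genes at or above the lowest of the 44, whose share with all 8 samples was 24.1% against 15.9% of the 44, it was not computed here.

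**Figure D3:**
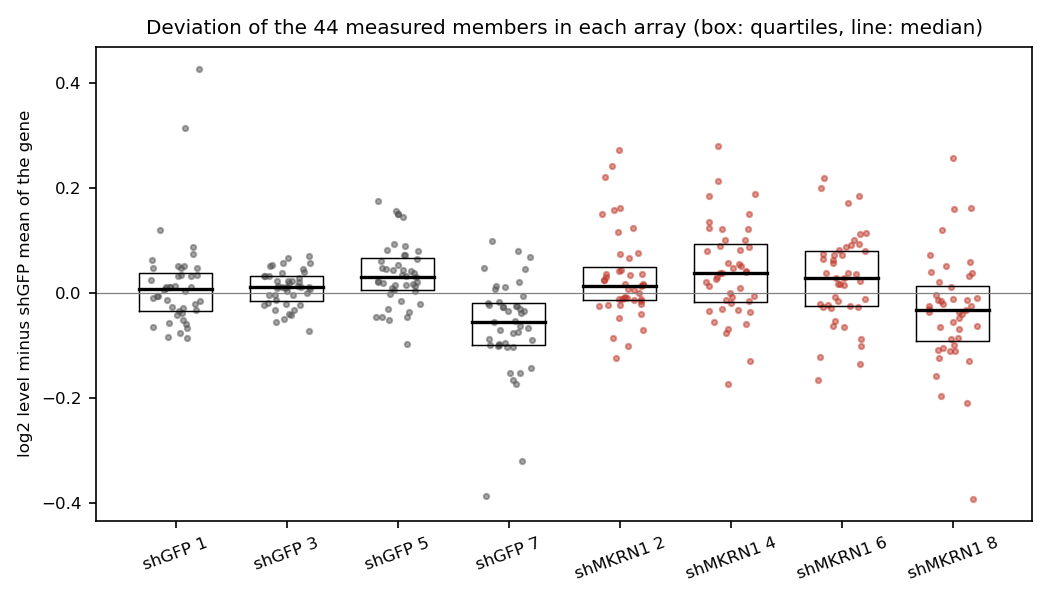
Deviation of each of the 44 genes from its shGFP mean (log2, y axis) in each of the 8 arrays, with quartiles and median. Medians are -0.05 in shGFP 7 and -0.03 in shMKRN1 8, below those of the other 6 arrays.

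The change was also compared within samples for 14 pairs of related genes, a test added after the levels had been seen. The quantity is the difference between the log2 levels of the pair in a sample, which shows only unequal change. In 5 of the 14 pairs the ratios of the groups were fully separated. The share among pairs of other genes was not computed, so this count has no background to be read against. All 5 had an exact permutation p of 0.0286, the smallest that 70 assignments allow. After Benjamini-Hochberg adjustment over the 14 pairs it was 0.08, so none passed. With that smallest p, a fully separated pair could pass only if most of the 14 pairs were fully separated. The adjusted test could therefore hardly call a few pairs, whatever their difference. The largest difference of changes was that of Larp4 and Larp4b, 0.38, with the log2 ratio at -0.13, -0.03, -0.03 and -0.14 in shGFP and at 0.31, 0.37, 0.27 and 0.23 in shMKRN1. With the other Larp4 probe sets the difference was 0.30 (exact permutation p = 0.0571) and 0.31 (0.0286).

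Cpeb2 and Cpeb4, whose levels overlapped when taken singly, separated in the within-sample ratio. The log2 ratio of Cpeb2 to Cpeb4 was 0.58, 0.40, 0.34 and 0.53 in shGFP and 0.26, 0.18, 0.11 and 0.14 in shMKRN1, a difference of changes of -0.29. The other 3 separated pairs were Atxn2 and Atxn2l (0.18), Stau1 and Stau2 (0.15) and Lsm14a and Lsm14b (0.10). The remaining 9 pairs overlapped. For G3bp1 and G3bp2 the difference was -0.07 (exact permutation p = 0.0571), for Ybx1 and Ybx3 -0.08 (0.0857), for Eif4a1 and Eif4a2 -0.05 (0.257), and for Eif4g2 and Eif4g3 0.01 (0.857).

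Of 34 further paralogues of the list, 31 were measured, and 3 passed limma, which is 9.68% against 4.49% of all genes. Msi1, the Musashi gene related to Msi2 and known from neural progenitors, rose by 0.46, from 8.53, 8.60, 8.76 and 8.84 in shGFP to 9.16, 8.99, 9.26 and 9.16 in shMKRN1 (SE 0.083; limma adjusted p = 0.0156). Its shMKRN1 samples were all above its shGFP samples. Elavl2, a neuronal relative of Elavl1, fell by 0.34, from 8.48, 8.45, 8.60 and 8.50 to 8.13, 8.12, 8.24 and 8.18 (SE 0.054; limma adjusted p = 0.00832). Celf4, a neuronal relative of Celf1, fell by 0.25, from 8.91, 8.95, 8.85 and 8.91 to 8.66, 8.67, 8.59 and 8.73 (SE 0.050; limma adjusted p = 0.0254). The groups did not overlap in any of the 3. The changes of Msi2, Elavl1 and Celf1 were 0.09, 0.04 and 0.04, and whether they differ from those of Msi1, Elavl2 and Celf4 was not tested. The call of Elavl2 held without each sample in turn. That of Msi1 was lost without shGFP 3, shMKRN1 2 or shMKRN1 6 (adjusted p up to 0.0605), and that of Celf4 without shGFP 1 or 3 or shMKRN1 2, 4 or 6 (up to 0.0964) and with adjustment over all probe sets (0.0573).

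**Figure D4:**
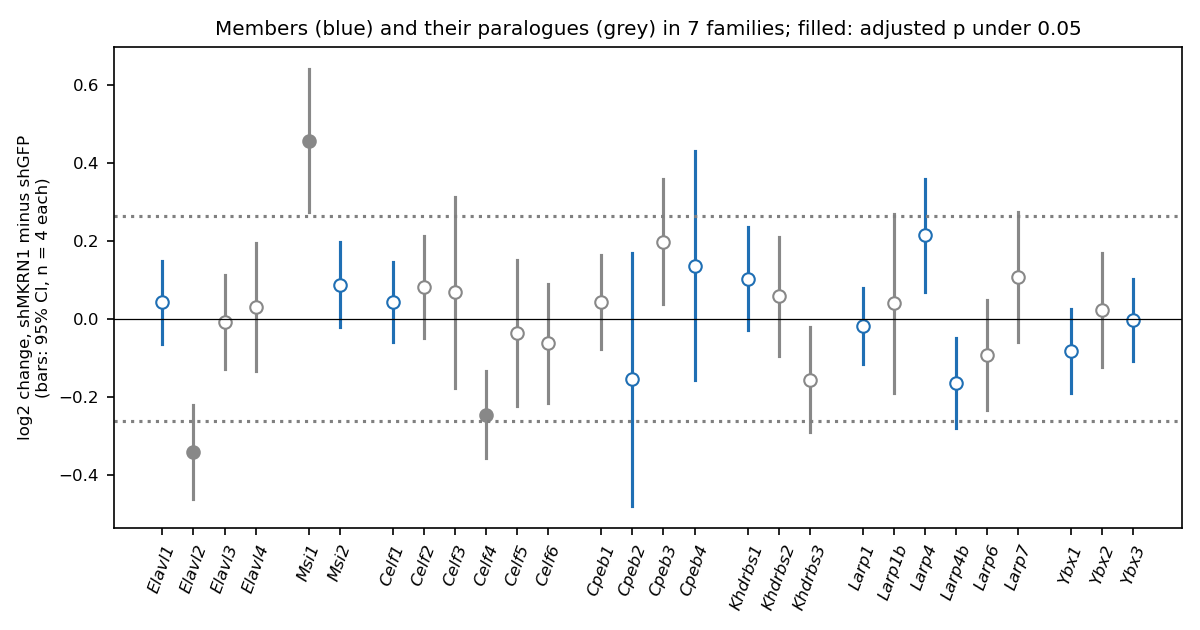
Log2 change (y axis) with 95% confidence interval (n = 4 each) of genes of the list, in blue, and their paralogues, in grey, in 7 families. Filled points passed an adjusted p of 0.05: Elavl2 at -0.34, Msi1 at 0.46 and Celf4 at -0.25. Dotted lines mark 1.2-fold.

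Of 98 measured genes in 5 lists of related factors, the paralogues included, 4 passed the test, or 4.08%, near the 4.49% of all genes. Stress granules usually form when eIF2 is phosphorylated, and of 18 measured genes for eIF2, its exchange factor eIF2B, its kinases and phosphatases and related factors, 1 rose and none fell. It was Eif2b3, a subunit gene of eIF2B, at 10.77 ± 0.044 (SD, n = 4) in shGFP and 11.03 ± 0.028 in shMKRN1, with no overlap (change 0.26, SE 0.047; limma adjusted p = 0.0151). That call was lost without shGFP 3, shMKRN1 4 or shMKRN1 6 (adjusted p up to 0.0635). None of 10 other eIF3 subunit genes passed limma (2 had an unadjusted p under 0.05), and the smallest p was that of Eif3h (0.17, SE 0.048; limma adjusted p = 0.0754). None of 13 regulators of the cap-binding complex passed limma (5 had an unadjusted p under 0.05). The groups were separated for 7 of these regulators (53.8%, against 14.1% of all genes). All 13 had mean levels of at least 8.52. Among the 7288 genes with a mean level of at least 8.43, the share of separated genes was 24.1%. Whether the 13 regulators differ from these genes was not tested. Among the 13 regulators the smallest p was that of Gigyf2, which encodes a partner of the cap-binding repressor, at 0.18 (SE 0.048; limma adjusted p = 0.0683). With the test restricted to genes above the median level, 3 of the 13 passed, against 16% of all genes in that fit. They were Gigyf2 (limma adjusted p = 0.018), Pdcd4 (-0.21, limma adjusted p = 0.0407) and Eif4ebp1 (0.17, limma adjusted p = 0.0424). Pdcd4 encodes an inhibitor of the helicase eIF4A, and Eif4ebp1 a repressor that binds eIF4E. Of 17 alternatives, 3, 2 and 3 called these genes in turn, and none that left out a single sample did. The same restricted fit gave 3 calls for eIF2 and its regulators, 1 for other eIF3 subunits, 0 for other stress granule proteins and 3 for paralogues. None of 26 other stress granule protein genes passed limma (4 had an unadjusted p under 0.05), with Cirbp, a cold-inducible RNA-binding protein gene, at 0.18 (SE 0.061; limma adjusted p = 0.136). The medians of these 4 lists were 0.04, 0.04, 0.08 and 0.0048.

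The start regions of the genes share features that the choice of the list did not use. RefSeq promoters (GRCm38.p6) matched 37 of the 44 genes with 53 annotated starts, and the 250 bases before each start were read. Their median GC content was 66.8%, against 52.4% for all 32851 starts. The GC box GGGCGG, on either strand, was found in 71.7% of the 53 and in 32.7% of all. The CCAAT box CCAAT was found in 26.4% against 33.8%, the ETS element CCGGAAG in 13.2% against 6.91%, and TATAAA in 5.66% against 12.4%. TGATGNAA, a core of the element bound by ATF4 and C/EBP factors, was in none of the 53 and in 3.45% of all. All starts include those of genes silent in these cells, starts of the same gene are not independent, and a match is a description of letters, not of a bound site.

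The upstream bases are shown for Hnrnpa0, the single call, and for Larp4 and Larp4b, which had the largest difference of changes among the pairs compared. They are written 5′ to 3′ on the strand of the gene, ending at the base before the annotated start, and capitals mark every match to the 5 motifs on either strand. They lie at chr13:58128557-58128806 (minus strand), chr15:99972530-99972779 (plus strand) and chr13:9093631-9093880 (plus strand).
Hnrnpa0: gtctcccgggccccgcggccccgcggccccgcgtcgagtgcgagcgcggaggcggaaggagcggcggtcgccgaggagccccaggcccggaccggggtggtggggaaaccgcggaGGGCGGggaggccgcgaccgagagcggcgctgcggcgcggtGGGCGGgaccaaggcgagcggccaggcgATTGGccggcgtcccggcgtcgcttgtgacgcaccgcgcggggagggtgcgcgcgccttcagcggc
Larp4: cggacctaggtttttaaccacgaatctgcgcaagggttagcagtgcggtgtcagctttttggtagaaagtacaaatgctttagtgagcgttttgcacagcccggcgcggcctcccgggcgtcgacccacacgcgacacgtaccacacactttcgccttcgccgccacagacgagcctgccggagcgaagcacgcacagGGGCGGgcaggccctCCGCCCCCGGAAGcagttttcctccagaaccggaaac
Larp4b: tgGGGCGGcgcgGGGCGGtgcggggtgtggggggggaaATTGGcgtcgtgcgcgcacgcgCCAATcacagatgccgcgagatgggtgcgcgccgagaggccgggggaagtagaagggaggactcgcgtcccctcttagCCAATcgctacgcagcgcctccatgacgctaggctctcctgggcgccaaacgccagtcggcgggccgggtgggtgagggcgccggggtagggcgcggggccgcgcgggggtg

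All 3 regions hold 2 matches to the GC box. Larp4b holds 3 CCAAT boxes, Hnrnpa0 holds 1 and Larp4 none, while the ETS element was found in Larp4 alone of the 3. Their GC contents were 81.2% for Hnrnpa0, 61.2% for Larp4 and 74.0% for Larp4b.

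For Pabpc4 and Hnrnpa1 only shared probe sets were present, and whether their changes differ was not tested. The 3 probe sets of Pabpc4, which carry 2 symbols each, changed by 0.05, 0.04 and 0.16, and the 4 of Hnrnpa1, each with 4 symbols, by 0.05, -0.13, 0.12 and 0.01. None passed limma adjusted over all probe sets (adjusted p of 0.13 to 0.927). These values can mix several loci.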

How the data were processed

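The authors deposited log2 values of 34760 probe sets. RMA is the tool named in the submitters' processing notes, without a version. RMA normalizes arrays to each other, so a change of all RNA alike is not visible, and low signals are compressed. Platform annotation gave 21640 probe sets 1 symbol, 1321 several and 11799 none. Probe sets with several symbols were left out, and the probe set with the highest mean was kept for 954 genes with several. Groups were read from the sample titles.

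Differences were fitted with limma 3.58.1 in R 4.3.3 (lmFit, eBayes, two-sided, no filter, no covariate; 6 residual and 4 prior degrees of freedom) and adjusted by Benjamini-Hochberg over 19937 genes, with a threshold of 0.05. The fit and its intervals were tested on simulated data with independent noise for each gene and array. Shifts that many genes share in an array were not simulated. Pairs of paralogues used an exact two-sided permutation test. The number of arrays limits the precision.

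The genes and lists were chosen with earlier results of these data known. Every gene of the list is named. Values per array are given for the 10 with the smallest p and for other genes chosen after their values were seen (G3bp2, Cpeb2, Cpeb4). Of the other lists, called genes or the smallest p are named. Alternatives were 2 scalings, a level filter, probe set averaging, adjustment over all probe sets, a variance trend, array weights, left-out arrays and, added after the data were seen, a block of consecutive sample numbers.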

Additional observations from a re-analysis of the deposited data

Results flagged for a closer look

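In 4 of 90 groups of 4 values (Mkrn1 and the 44 genes in each group), 1 sample lay far from the other 3, which is 4.44%, near the 1 in 20 that chance gives and the 5.48% found over all genes. Within shMKRN1, Eif4g2 was 12.44 in sample 8 against 12.54 to 12.55 in the others. Elavl1 was 11.70 in sample 8 against 11.77 to 11.78. Khdrbs1 was 11.13 in sample 8 against 11.19 to 11.20. Sample 8 is also the shMKRN1 sample that stood apart from its group on the leading principal component, so its flags are not independent. Lsm14b was 9.61 in sample 2 against 9.69 in each of the others.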

How the results depend on the processing

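The change of Mkrn1 kept its direction and call in all 17 alternatives. The count of called genes in the list was 1 as reported (2.27%, against 4.49% of all genes). It was 0 with adjustment over all probe sets (378 genes called in all, 1.9%). With genes above the median level only it was 4 (9.09%, against 1595 in all or 16%). An intensity trend and robust estimation also gave 4 (9.09%, against 1549 in all or 7.77%). Array weights gave 3 (6.82%, against 2757 in all or 13.8%). Leaving out 1 sample gave 0 to 1 calls in the list (1 without shGFP 7 only). Over all genes it gave 309 to 852 (1.55% to 4.27%), against 896. Besides Hnrnpa0, the genes called in any alternative were Larp4, Larp4b and Atxn2, and the other 40 were called in none. With quantile normalization the single call was Larp4b in place of Hnrnpa0. Of all calls, 81.4% were higher as reported and 70.1% with array weights. The median change of the list moved by less than the spread between samples in every alternative. The number of genes whose groups do not overlap was 7 as reported, 4 with median centring, 7 to 13 without 1 sample, and 16 without shGFP 7 and shMKRN1 8, which leaves 3 against 3. The share over all genes was 14.1%, 13.8%, 15.8% to 21.7% and 27.8% in turn. In the lists of related factors the calls ranged over the alternatives from 0 to 3 for eIF2 and its regulators, 0 to 2 for other eIF3 subunits, 0 to 3 for cap-binding regulators, 0 to 1 for other stress granule proteins and 1 to 4 for paralogues. Over the same alternatives 1.55% to 16% of the genes tested passed. Among uncalled genes of the list, 17 changed sign in at least 1 alternative. The groups share no replicate numbers, and the labels do not say whether consecutive numbers (1 and 2, 3 and 4) were handled together. A replicate block of consecutive numbers, added after the data were seen, gave 1446 calls over all genes (7.25%). In the list it gave 2 (4.55%), Hnrnpa0 and Larp4 (limma adjusted p = 0.0439 for Larp4). Across genes, deviations from the group means correlated at 0.13, -0.05, 0.26 and 0.64 within these pairs, and each sample of a pair correlated best with the other for 7 and 8 alone. These correlations cannot show whether the samples were handled in pairs, and the main fit used no pairing.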
